A study of Homo sapiens and Mus musculus with 21 samples.

Results

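A set of 10 genes that are read as marks of epithelial-mesenchymal transition (EMT) were followed in human colon carcinoma cells grown in the caecum of mice. They were taken by name from the 58336 human gene entries of the deposited expression table (TPM, transcript abundance scaled by transcript length and by library total), and all 10 were found. CDH1, EPCAM and ESRP1 are epithelial genes, VIM and CDH2 are mesenchymal genes, and ZEB1, ZEB2, SNAI1, SNAI2 and TWIST1 encode EMT transcription factors. Of the 10, 8 reached 1 TPM in at least 3 libraries and were tested together with all 22981 genes that did so. CDH2 and TWIST1 did not and are given as values. The tumours came from SW480, a primary colon adenocarcinoma line, and SW620, a lymph node metastasis line from the same patient, injected into the caecum wall of immunodeficient NSG mice and harvested after 28 days. SW480 carried a lentiviral mock construct (Mock) or a dominant negative LEF1 (dnLEF1), a form of the Wnt transcription factor that blocks β-catenin target genes. SW620 carried the same Mock or dnLEF1. A further SW620 group received a CRISPR construct for LRP6, a co-receptor of Wnt ligands, and cells with little LRP6 at the surface were collected by flow cytometry (LRP6KO). Its control was the CRISPR mock (Cas9). Each of these 6 groups had 3 libraries, described as biological triplicates. The labels do not say that each library came from its own animal, so p-values measure the spread between these samples. The age and sex of the mice were not given in the sources used here.

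In an epithelium, E-cadherin joins neighbouring cells and is tied to the actin cytoskeleton through catenins. The ZEB, SNAIL and TWIST factors bind E-box motifs in the promoters of epithelial genes and repress them, and cells that undergo EMT lose E-cadherin and gain vimentin, an intermediate filament protein, and often N-cadherin. MicroRNAs of the miR-200 family and miR-205 repress ZEB1 and ZEB2, and the ZEB proteins in turn repress the miR-200 genes. β-catenin, the effector of Wnt signalling, is also the partner of E-cadherin at the junction.

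The miR-200 and miR-205 microRNAs are shown with the seed (bases 2 to 8) in capitals, since the seed largely sets which transcripts they pair with. The sequences are those of RefSeq (GRCh38.p14), written 5′ to 3′.
miR-200c-3p: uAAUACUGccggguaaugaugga
miR-200b-3p: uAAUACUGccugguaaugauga
miR-429: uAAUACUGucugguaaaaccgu
miR-141-3p: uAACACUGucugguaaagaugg
miR-200a-3p: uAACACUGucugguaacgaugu
miR-205-5p: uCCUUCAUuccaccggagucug
The first 3 share the seed AAUACUG, miR-141-3p and miR-200a-3p share AACACUG, and miR-205-5p has CCUUCAU. miR-200c and miR-141 lie in MIR200CHG on chromosome 12, miR-205 in MIR205HG on chromosome 1, and the other members of the family lie elsewhere on chromosome 1. Only the host genes MIR200CHG and MIR205HG were followed here, and no host transcript of miR-200b, miR-200a or miR-429 was.

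Matches to these seeds were counted in the longest annotated 3′ untranslated region of ZEB1 (2549 bases) and ZEB2 (5370 bases) in GENCODE release 29. CAGTATT, the reverse complement of the first seed, occurred 6 times in ZEB1 and 5 times in ZEB2. It occurred at least once in 26.2% and 45.9% of untranslated regions within 20% of those lengths. CAGTGTT, that of the second, occurred 3 times in ZEB1 and 4 times in ZEB2, and at least once in 29.5% and 51.7% of regions of like length. ATGAAGG, for miR-205-5p, occurred 1 time in ZEB1 and not in this ZEB2 region, against 19% and 34.8%. The match of each kind nearest the stop codon is shown in GRCh38 coordinates with the match in capitals, as a description of the sequence and not as a functional site.
ZEB1, chr10:31527619-31527640, plus strand: ttgttttatcttatCAGTATTa
ZEB1, chr10:31528032-31528053, plus strand: aaaatcatcagaatCAGTGTTt
ZEB1, chr10:31528068-31528089, plus strand: atatgtggtaacatATGAAGGa
ZEB2, chr2:144389052-144389073, minus strand: gcactaccatacatCAGTATTt
ZEB2, chr2:144389236-144389257, minus strand: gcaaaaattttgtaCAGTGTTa

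LEF1, which takes in the introduced form, was at 47.2 to 99.4 TPM in SW480 dnLEF1 against 5.09 to 14.8 in SW480 Mock and at 18.3 to 24.0 in SW620 dnLEF1 against 0.30 to 0.80 in SW620 Mock. LRP6 lay at 17.5 to 21.1 TPM in LRP6KO and 10.9 to 17.8 in Cas9, and its transcript level does not check an edit of the protein. Summed TPM of 7 colon carcinoma markers was 8489 to 20708 per library. The sum of 8 fibroblast markers was 5.96 to 20.2, of 4 endothelial markers 0.72 to 8.25, of 4 leukocyte markers 1.79 to 12.5 and of 5 smooth muscle and glia markers 1.80 to 20.8. The smooth muscle and glia sum was 12.1 to 20.8 in SW480 Mock and 4.83 to 5.98 in SW620 Mock, and the endothelial sum 0.72 to 2.35 and 2.87 to 3.66. The part of these transcripts in the differences between the lines was not tested. The fibroblast collagen COL3A1 was at most 0.23 TPM in any library. LUM, PDGFRB and PECAM1 were higher in SW620 Mock than in SW480 Mock (log2 differences 3.25, 1.05 and 1.16, adjusted p 1.98e-07, 0.0112 and 0.0183), and the smooth muscle marker DES was lower (-1.74, adjusted p 1.02e-04). Of the 6 tested fibroblast markers 3 lay above and 3 below 0, with DCN at -0.69, COL1A1 at -0.64 and COL1A2 at -0.37, none of which passed. The summed fibroblast markers were 16.6 to 19.0 TPM in SW620 Mock and 5.96 to 15.2 in SW480 Mock. The human table holds no PBS-injected caecum, so no tumour-free background stands beside these values. How mouse and human reads were separated is not given in the sources used here, so mouse transcripts counted in the human table, such as those of VIM, cannot be told apart from human ones. SW480 Mock replicate 2 and SW620 LRP6KO replicate 1 held the most genes above 0 (34709 and 34114, against 24665 to 29691 in the other libraries).

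The human values of both lines' tumours held the epithelial surface gene EPCAM and the mesenchymal filament gene VIM side by side, with CDH1 far lower and CDH2 close to 0. VIM (ENSG00000026025.15, GRCh38 chromosome 10, 17228259 to 17237593, plus strand) ranged from 142 to 617 TPM over the 18 libraries. EPCAM (ENSG00000119888.10, chromosome 2, 47345158 to 47387601, plus strand), an epithelial adhesion molecule, ranged from 248 to 642 TPM. CDH1, the gene of E-cadherin (ENSG00000039068.18, chromosome 16, 68737225 to 68835548, plus strand), ranged from 2.79 to 27.4 TPM. ESRP1, an epithelial splicing regulator (ENSG00000104413.16, chromosome 8), ranged from 2.20 to 20.7 TPM. The highest of the factors were ZEB1 (5.45 to 13.8 TPM) and SNAI1 (1.42 to 11.3 TPM), which lay in the same range as CDH1. In bulk tissue a lower level in fewer cells and a lower level in each cell cannot be told apart.

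**Figure D1:**
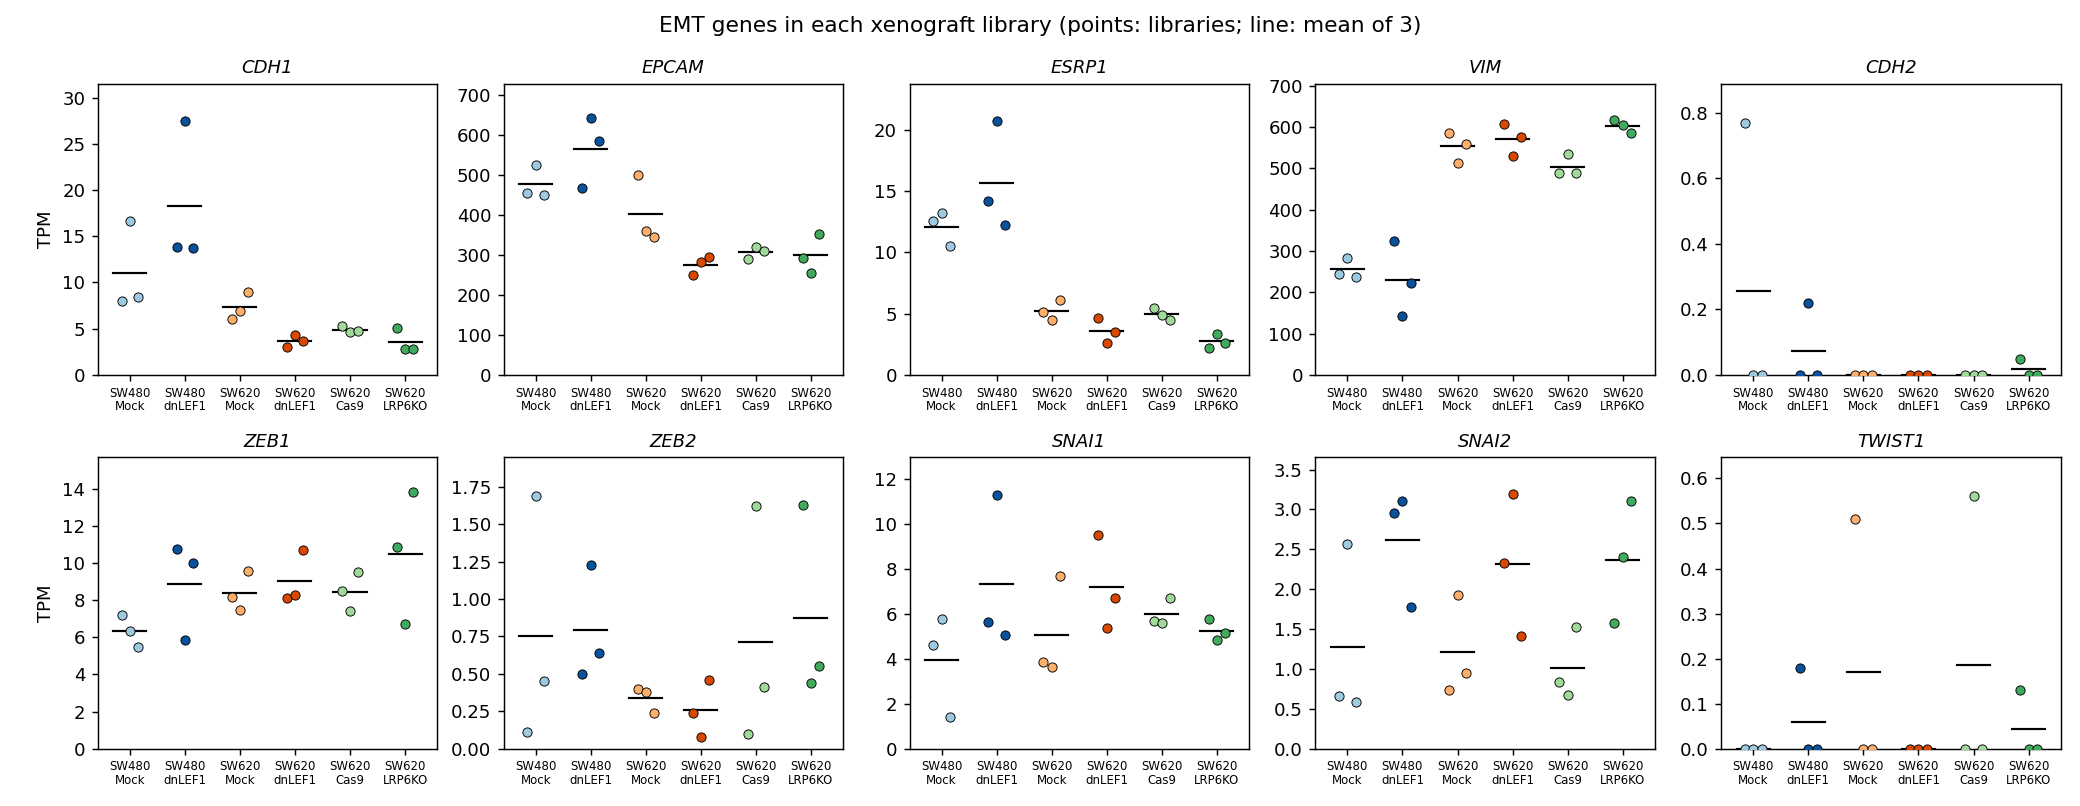
TPM of the 10 EMT genes (vertical axes from 0, a scale for each gene) in the 6 xenograft groups; points are libraries and lines are means of 3. VIM sits at 488 TPM or more in every SW620 library and at 323 or less in every SW480 library, while ESRP1 separates the lines the other way.

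CDH1, EPCAM and ESRP1 shared the order of their 4 highest groups by mean: SW480 dnLEF1, SW480 Mock, SW620 Mock and SW620 Cas9. CDH1 was highest in SW480 dnLEF1, at 13.8, 27.4 and 13.8 TPM in replicates 1 to 3. It was 7.95, 16.7 and 8.45 in SW480 Mock, 6.01, 6.95 and 8.94 in SW620 Mock, and 5.26, 4.62 and 4.75 in SW620 Cas9. It was lowest in SW620 dnLEF1 (3.06, 4.28 and 3.63) and SW620 LRP6KO (5.05, 2.79 and 2.81). Neighbouring groups in this order overlapped, except that SW620 Mock lay above SW620 Cas9 and SW620 Cas9 lay above SW620 dnLEF1. Replicate 2 was the high library of both SW480 groups.

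EPCAM differed less between groups than CDH1. Its values were 465, 642 and 585 TPM in SW480 dnLEF1, 455, 524 and 450 in SW480 Mock, and 499.5, 360.3 and 345 in SW620 Mock. They were 290.1, 319 and 309.7 in SW620 Cas9, 292, 255 and 352 in SW620 LRP6KO and 248, 282 and 295 in SW620 dnLEF1. The 1 gap between neighbours without overlap was that of SW620 Mock over SW620 Cas9. A short structural RNA entry (RF00017) lies inside EPCAM on the same strand with a mean of 112 TPM, and reads shared between the entries could be split by the quantification.

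ESRP1 fell into 2 levels. It was 14.2, 20.7 and 12.2 TPM in SW480 dnLEF1 and 12.6, 13.2 and 10.5 in SW480 Mock. In SW620 it was 5.13, 4.44 and 6.12 in Mock, 5.44, 4.91 and 4.46 in Cas9, 4.68, 2.60 and 3.51 in dnLEF1 and 2.20, 3.35 and 2.63 in LRP6KO. Every SW480 library lay above every SW620 library, and within each line neighbouring groups overlapped.

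VIM showed the opposite order of lines. It was 617, 605 and 585 TPM in LRP6KO, 608, 529.6 and 576 in SW620 dnLEF1, 586, 513 and 560.0 in SW620 Mock and 488, 534 and 488 in Cas9. In SW480 it was 245, 283 and 238 in Mock and 323, 142 and 222 in dnLEF1. The 4 SW620 groups overlapped with their neighbours and all lay above both SW480 groups. The antisense transcripts VIM-AS1 and AL133415.1 overlap VIM at means of 3.30 and 0.68 TPM, low beside the level of VIM. CDH2, the gene of N-cadherin (ENSG00000170558.8, chromosome 18, 27950966 to 28177446, minus strand), was listed at 0 in 15 of 18 libraries. The exceptions were 0.77 TPM in SW480 Mock replicate 1, 0.22 in SW480 dnLEF1 replicate 2 and 0.05 in LRP6KO replicate 1. CDH2 was at 0 in 11 of the 12 SW620 libraries, where VIM was high.

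Between the mock tumours of the lines, VIM was higher and ESRP1 lower in SW620, and the other 6 tested genes did not pass the test. VIM rose from 255.2 ± 24.0 TPM in SW480 Mock to 553 ± 36.9 in SW620 Mock (SD, n = 3 each), a log2 difference of 1.12 (SE 0.20; limma, Benjamini-Hochberg adjusted p 4.75e-04). ESRP1 fell from 12.1 ± 1.39 to 5.23 ± 0.84 TPM, with a log2 difference of -1.07, an SE of 0.23 and adjusted p 0.00206. These 2 calls among 8 genes stand beside 23.9% of all tested genes called in this comparison, 10.9% higher and 12.9% lower in SW620. CDH1 (log2 difference -0.48, 95% interval -1.11 to 0.16, adjusted p 0.289) and EPCAM (-0.26, interval -0.60 to 0.07, adjusted p 0.267) did not pass. ZEB1 was higher in all 3 SW620 Mock libraries than in any SW480 Mock library (log2 difference 0.36, adjusted p 0.343). The ranges of 35.4% of all tested genes did not overlap here. ZEB2 (-0.29, adjusted p 0.628), SNAI1 (0.36, adjusted p 0.520) and SNAI2 (0.03, adjusted p 0.977) did not pass.

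The same difference was taken in the dnLEF1 libraries, which share no sample with the mock libraries; this was chosen after seeing the data, and it holds the line and its response to dnLEF1 together. VIM was higher (log2 difference 1.39, SE 0.20, adjusted p 4.57e-05) and ESRP1 lower (-1.85, SE 0.23, adjusted p 1.05e-05) in SW620 again. CDH1 was 3.97-fold lower on the log2(TPM + 1) scale (-1.99, SE 0.30, adjusted p 8.82e-05), at 3.06 to 4.28 TPM against 13.8 to 27.4. EPCAM was 2.04-fold lower (-1.03, SE 0.16, adjusted p 1.10e-04). All 4 genes separated the groups without overlap, beside 31.5% of tested genes called (10% higher and 21.5% lower in SW620) and 44.7% without overlap. ZEB1 (0.05), ZEB2 (-0.50), SNAI1 (0.02) and SNAI2 (-0.14) did not pass. Of these, ZEB2 was also lower in SW620 without overlap, at 0.08 to 0.46 TPM against 0.50 to 1.23. Over all genes, 17.2% were called in the same direction in both comparisons of the lines.

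**Figure D2:**
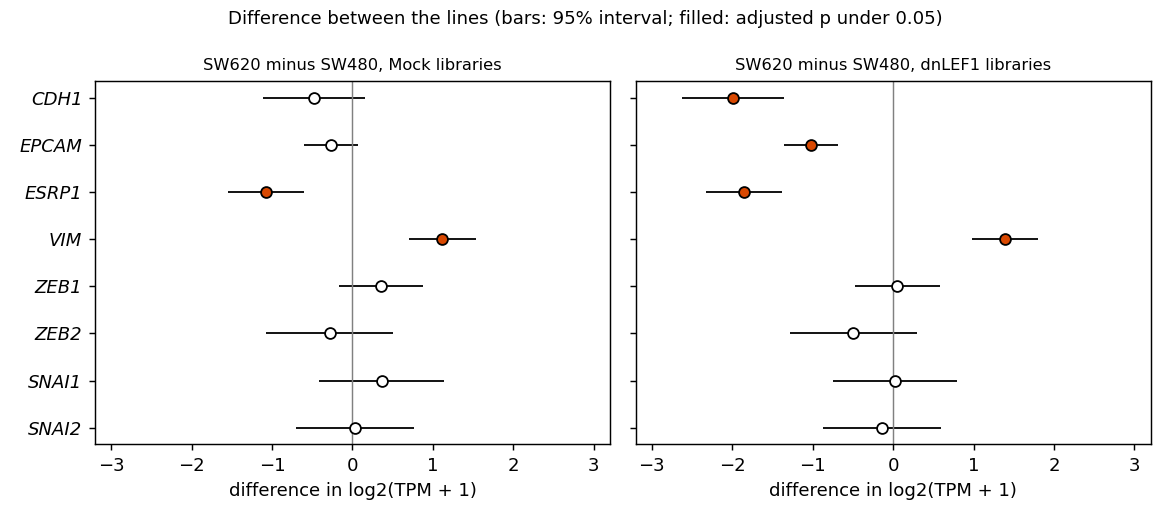
Difference between SW620 and SW480 in log2(TPM + 1) (horizontal axes) for the 8 tested EMT genes, in Mock libraries on the left and dnLEF1 libraries on the right; bars are 95% intervals and filled points have an adjusted p under 0.05. VIM and ESRP1 pass in both panels, CDH1 and EPCAM in the right one.

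None of the EMT transcription factors was called in any of the comparisons of groups. ZEB1, a zinc finger E-box repressor (ENSG00000148516.21, chromosome 10, 31318495 to 31529814, plus strand), was 7.21, 6.36 and 5.45 TPM in SW480 Mock and 10.7, 5.87 and 9.98 in SW480 dnLEF1. In SW620 it was 8.16, 7.45 and 9.55 in Mock, 8.11, 8.25 and 10.7 in dnLEF1, 8.47, 7.39 and 9.50 in Cas9 and 10.9, 6.71 and 13.8 in LRP6KO. SW480 Mock was lowest and did not overlap with SW620 Mock, the next group above it, and all other neighbours overlapped. ZEB1-AS1, which overlaps ZEB1 on the other strand, had a mean of 12.2 TPM, above that of ZEB1 itself, and without strand information reads from the overlap cannot be told apart. ZEB2, the paralogue of ZEB1 (ENSG00000169554.19, chromosome 2, 144364364 to 144524583, minus strand) was at 0.08 to 1.69 TPM, and reached 1 TPM in 4 of 18 libraries.

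SNAI1, the gene of Snail (ENSG00000124216.3, chromosome 20, 49982999 to 49988886, plus strand), was 4.62, 5.80 and 1.42 TPM in SW480 Mock and 5.64, 11.3 and 5.08 in SW480 dnLEF1. In SW620 it was 3.87, 3.65 and 7.69 in Mock, 9.54, 5.37 and 6.73 in dnLEF1, 5.67, 5.58 and 6.72 in Cas9 and 5.77, 4.83 and 5.17 in LRP6KO. The dnLEF1 groups of both lines had the highest means, 7.34 and 7.21 TPM, and every pair of neighbours overlapped. SNAI2, the gene of Slug (ENSG00000019549.10, chromosome 8), ran from 0.58 to 3.19 TPM. Its group means were 2.62 in SW480 dnLEF1, 2.36 in LRP6KO and 2.31 in SW620 dnLEF1, and 1.27 in SW480 Mock, 1.21 in SW620 Mock and 1.01 in Cas9, so the 3 modified groups stood above the 3 controls, with overlap between all neighbours. TWIST1 (ENSG00000122691.12, chromosome 7) was listed at 0 in 14 libraries and reached at most 0.56 TPM.

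The host genes of miR-200c and miR-205, whose sequences are shown above, ranged over the groups more widely than ZEB1 and ZEB2 did. MIR200CHG (ENSG00000257084.1, chromosome 12, 6963246 to 6964447, plus strand) was 13.0, 16.4 and 29.4 TPM in SW480 Mock and 34.5, 45.9 and 47.4 in SW480 dnLEF1. Across the 12 SW620 libraries it was at 0 to 2.41 TPM. The log2 difference of SW620 Mock from SW480 Mock was -3.24 (SE 0.41, adjusted p 1.80e-05), with no overlap. In SW480 it was higher with dnLEF1 in every library, without passing the test (log2 change 1.15, adjusted p 0.178), as were 7.17% of all tested genes. MIR205HG (ENSG00000230937.11, chromosome 1, 209428820 to 209432838, plus strand) was 1.23, 1.17 and 1.95 TPM in SW480 Mock and 16.3, 74.5 and 39.0 in SW480 dnLEF1, a log2 change of 3.95 (SE 0.38, adjusted p 3.68e-05). It was at 1.00 to 1.60 TPM in SW620 dnLEF1 and 0.37 to 0.75 in SW620 Mock (log2 change 0.56, adjusted p 0.751). Beside these host gene levels, ZEB1 stood at means of 6.34 TPM in SW480 Mock and 8.86 in SW480 dnLEF1, and of 8.39 in SW620 Mock and 9.03 in SW620 dnLEF1. The TPM of a host gene is not the level of the mature microRNA, which was not measured.

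**Figure D3:**
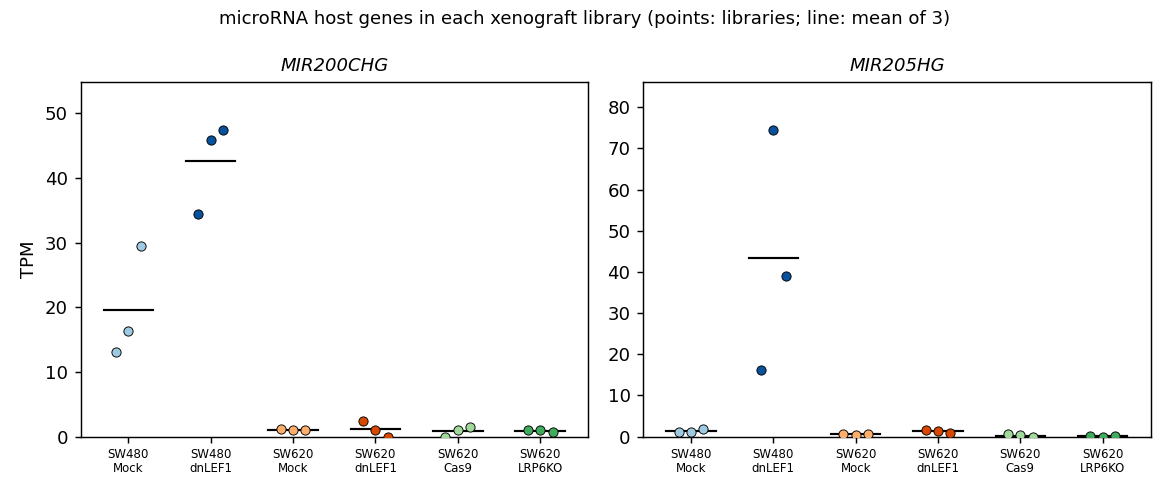
TPM (vertical axes from 0) of MIR200CHG and MIR205HG in each library of the 6 groups, with lines at the means of 3. MIR200CHG is 13.0 TPM or more in SW480 and 2.41 or less in SW620, and MIR205HG exceeds 1.95 TPM only in the 3 SW480 dnLEF1 libraries.

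The dnLEF1 comparisons ask whether blocking β-catenin target genes in the tumour cells moved the EMT genes. In SW480, none of the 8 tested genes was called between dnLEF1 and Mock, beside 2.23% of all tested genes. At an unadjusted p under 0.05 there were 3 of the 8, beside 15% of all tested genes. Of the 8, 7 had a log2 change above 0, with VIM (-0.23) as the exception, and the median was 0.36 against 0.03 over all tested genes. CDH1 (0.69, 95% interval 0.05 to 1.32, adjusted p 0.288), SNAI1 (0.81, interval 0.04 to 1.58, adjusted p 0.307) and SNAI2 (0.76, interval 0.02 to 1.49, adjusted p 0.313) had unadjusted intervals above 0, and their groups overlapped. ESRP1 (0.33), EPCAM (0.23), ZEB1 (0.40) and ZEB2 (0.11) had intervals that included 0.

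In SW620, none of the 8 was called between dnLEF1 and Mock either, beside 0.165% of all tested genes. At an unadjusted p under 0.05 there were 2, CDH1 and EPCAM, beside 8.1% of all tested genes. CDH1 was lower in all 3 dnLEF1 libraries than in any Mock library, at means of 3.66 ± 0.61 and 7.30 ± 1.5 TPM with n = 3 and SD as the error (log2 change -0.83 by limma, adjusted p 0.447). EPCAM was likewise lower without overlap, at 274.8 ± 23.8 and 402 ± 85.0 TPM (limma log2 change -0.53, adjusted p 0.305). Lower groups without overlap were found for 16.4% of all tested genes, and the median change of all genes was -0.12. ESRP1 stood at -0.46 (adjusted p 0.646), VIM at 0.05 (adjusted p 0.980), ZEB1 at 0.09 (adjusted p 0.953) and ZEB2 at -0.10 (adjusted p 0.974). SNAI1 (0.47) and SNAI2 (0.59) had values above 0 as in SW480, with adjusted p of 0.797 and 0.699.

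The difference between the dnLEF1 changes of the lines was tested directly. None of the 8 genes was called, beside 0.718% of all tested genes, and 3 of 8 had an unadjusted p under 0.05, beside 12.7%. CDH1 came nearest, with a change in SW620 minus that in SW480 of -1.51 (95% interval -2.41 to -0.61, SE 0.42, adjusted p 0.115), followed by EPCAM at -0.76 (interval -1.24 to -0.29, adjusted p 0.131) and ESRP1 at -0.78 (adjusted p 0.308). VIM stood at 0.28, ZEB1 at -0.30, ZEB2 at -0.21, SNAI1 at -0.34 and SNAI2 at -0.17. Without SW480 Mock replicate 2, the mock library with the highest CDH1, the adjusted p of CDH1 was 0.0374 and the value -1.83. Without SW480 dnLEF1 replicate 1, that of EPCAM was 0.0335 and the value -0.90. MIR205HG was called (-3.38, SE 0.54, adjusted p 0.00818). With a pseudocount of 0.1 its adjusted p was 0.111.

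In the LRP6KO tumours no gene of the whole table was called against Cas9 by limma. At an unadjusted p under 0.05 there were 2 of the 8 EMT genes, beside 3.33% of all tested genes. ESRP1 was 2.73 ± 0.58 TPM in LRP6KO and 4.94 ± 0.49 in Cas9, with SD as the error and no overlap. Its log2 change was -0.68 (95% interval -1.16 to -0.20, limma unadjusted p 0.0081, adjusted p 1). SNAI2 (0.74, limma unadjusted p 0.0491) and VIM (0.26, unadjusted p 0.203) were higher in all 3 LRP6KO libraries than in any Cas9 library. CDH1 stood at -0.40, EPCAM at -0.04, ZEB1 at 0.23, ZEB2 at 0.18 and SNAI1 at -0.16, with overlapping groups. Of all tested genes, 3.99% were lower and 5.68% higher in LRP6KO without overlap. The endothelial marker sum was 5.67 to 8.25 TPM in LRP6KO and 1.92 to 3.03 in Cas9, with PECAM1 at 1.15. The smooth muscle and glia sum was 5.12 to 7.40 and 3.91 to 4.52. The fibroblast sums (12.2 to 20.2 and 10.3 to 15.6) and leukocyte sums (1.79 to 7.19 and 3.28 to 4.52) overlapped. The part of these transcripts in the LRP6KO values was not tested.

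The 2 SW620 control groups, Cas9 and Mock, were compared in the same way. No gene was called between Cas9 and Mock by limma. At an unadjusted p under 0.05 there was 1 of the 8 EMT genes, EPCAM, beside 5.02% of all tested genes. CDH1 (log2 difference -0.48, adjusted p 1) and EPCAM (-0.37, limma unadjusted p 0.032, adjusted p 0.942) were lower in all 3 Cas9 libraries than in any Mock library, as were 7.81% of all tested genes. VIM (-0.14), ESRP1 (-0.06), ZEB1 (0.01), ZEB2 (0.25), SNAI1 (0.26) and SNAI2 (-0.12) overlapped. The Mock libraries of SW620 enter this comparison, that with dnLEF1 and that with SW480, so these are not independent of each other. The mitochondrial share of TPM (coding genes) moved with these groups: it was 4.73% to 5.71% in Cas9, 4.87% to 6.06% in SW620 dnLEF1, 3.93% to 4.20% in LRP6KO and 3.75% to 4.03% in SW620 Mock. The summed colon carcinoma markers moved as well, at 14648 to 16703 TPM in SW620 Mock, 10738 to 14010 in Cas9, 8489 to 10487 in SW620 dnLEF1 and 11671 to 12786 in LRP6KO. KRT19, a keratin of that list, fell with dnLEF1 in SW620 (-0.89, adjusted p 0.006). In Cas9 against Mock it was also lower without overlap (-0.55), and was not called. The part of these shifts in the lower CDH1 and EPCAM was not tested.

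**Figure D4:**
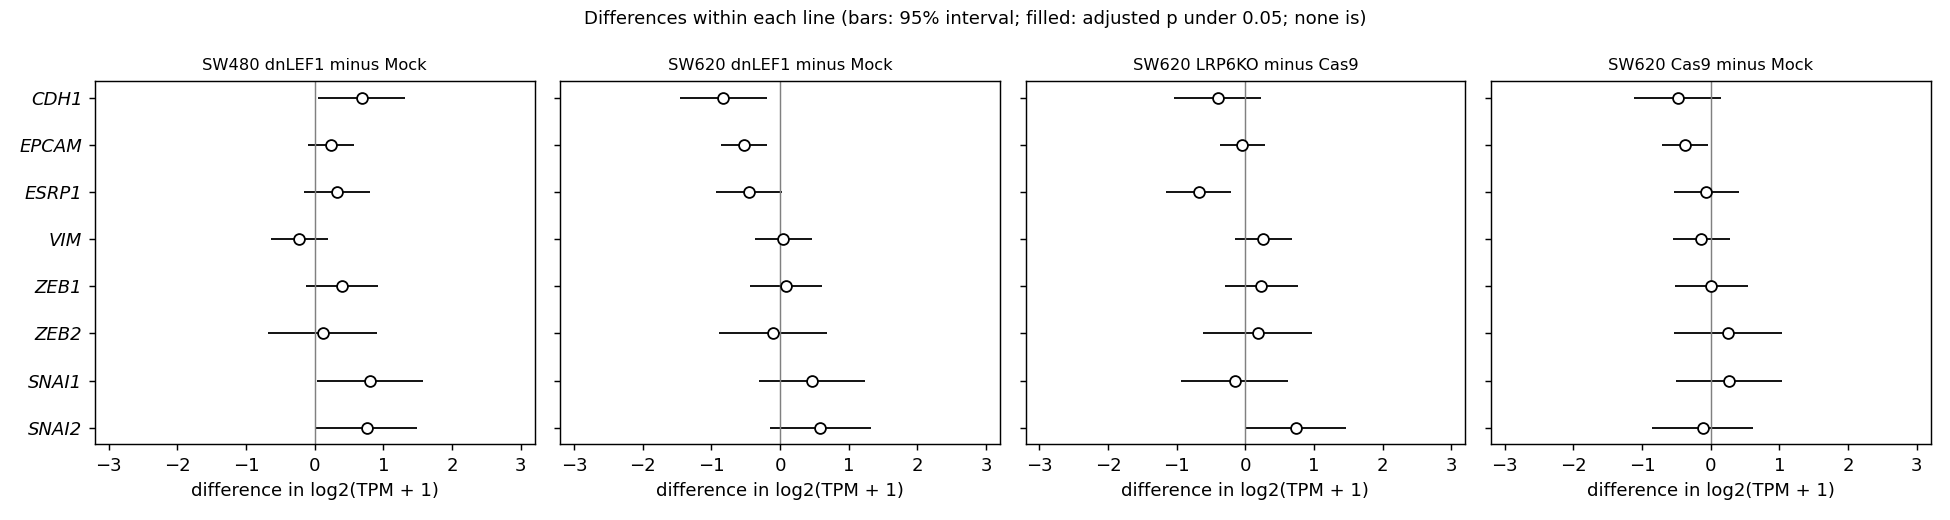
Differences in log2(TPM + 1) (horizontal axes) of the 8 tested EMT genes in the 4 comparisons within a line, with 95% intervals; open points have an adjusted p of 0.05 or more, as all have. CDH1 lies at 0.69 in SW480 dnLEF1 and at -0.83 in SW620 dnLEF1.

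Genes around the EMT factors, in 7 lists, differed between the mock lines in both directions. The counts stand beside 12.9% of all tested genes called lower and 10.9% called higher in SW620 Mock. Of 9 tested genes of the cadherin-catenin and nectin adhesion complex, 4 were lower and none higher. CTNNB1, the gene of β-catenin, lay between 174 and 198 TPM in SW480 Mock and between 75.9 and 81.9 in SW620 Mock (log2 difference -1.24, SE 0.22, adjusted p 4.30e-04). CTNNA1, the α-catenin that links cadherin to actin, was lower (-0.96, adjusted p 4.55e-04), and the adhesion genes NECTIN4 (-1.41) and NECTIN1 (-1.36) were also lower. Without SW480 Mock replicate 3 the adjusted p of NECTIN1 was 0.0603, and in the dnLEF1 libraries that of NECTIN4 was 0.123. Among 6 other cadherins 3 were lower and none higher. The P-cadherin gene CDH3 lay between 44.4 and 89.7 TPM in SW480 Mock and between 4.58 and 7.69 in SW620 Mock (log2 difference -3.11, SE 0.37, adjusted p 9.95e-06). The protocadherin gene PCDH1 (-1.61, adjusted p 1.74e-04) and the mesenchymal cadherin gene CDH11 (-1.62, adjusted p 0.0360) were lower too. Without SW480 Mock replicate 1 or SW620 Mock replicate 1 or 2, the adjusted p of CDH11 was 0.1 to 0.165.

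Of 15 epithelial polarity and surface genes, 4 were lower and 1 was higher in SW620 Mock, beside 23.9% of all tested genes called in either direction. AP1M2, an epithelial sorting adaptor (log2 difference -3.84, adjusted p 3.12e-07), and SPINT2, an inhibitor of surface proteases (-1.11, adjusted p 6.23e-07), were lower. The surface glycoprotein gene CD24 went the other way, with 3.42 to 6.22 TPM in SW480 Mock and 43.2 to 67.0 in SW620 Mock (log2 difference 3.46, adjusted p 2.08e-08). Of 9 epithelial transcription and splicing factors, 3 were higher and 2 lower. EHF, an epithelial ETS factor, was higher (log2 difference 3.51, adjusted p 7.82e-06), as was KLF5 (1.60), and OVOL2, an antagonist of ZEB1, was lower (-2.18, adjusted p 1.48e-04), as was GRHL1 (-0.69, adjusted p 0.0353), which passed in 3 of 14 alternatives. ESRP2, the paralogue of ESRP1, was named after its values were seen. It was higher in SW620 Mock (0.89, adjusted p 0.0378) where ESRP1 was lower.

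Of 15 mesenchymal effector genes, 4 were higher and 5 lower in SW620 Mock where VIM was higher, with a median log2 difference of -0.34 against -0.14 over all tested genes. CALD1, an actin-binding protein gene, was higher (1.63, adjusted p 9.75e-06), and did not pass in the dnLEF1 libraries (0.45, adjusted p 0.0851). The matrix gene TGFBI (-1.73, adjusted p 2.76e-07) and the adhesion gene NCAM1 (-3.31, adjusted p 2.72e-06) were lower. Of 9 genes of TGF-β input, TGFBR2, the type II receptor, was higher (2.49, adjusted p 7.23e-08), and the type I receptor TGFBR1 (-2.01) and the inhibitory SMAD7 (-1.89) were lower. Of 8 further EMT transcription factors, 2 were higher and none was lower, with TCF3 at 0.96 (adjusted p 0.0157). Without SW480 Mock replicate 3 or SW620 Mock replicate 1 or 3 the adjusted p of TCF3 was 0.056 to 0.0663.

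**Figure D5:**
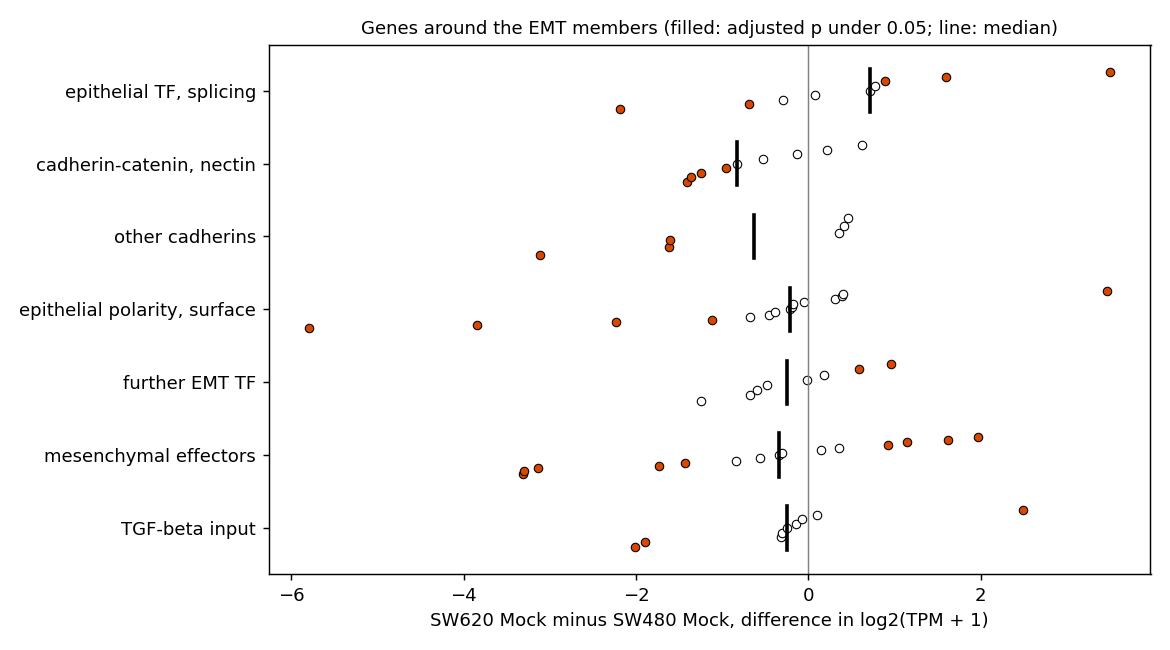
Difference in log2(TPM + 1) between SW620 Mock and SW480 Mock (horizontal axis) for each tested gene of 7 lists around the EMT genes; filled points have an adjusted p under 0.05 and vertical lines are list medians. The cadherin-catenin list lies mostly below 0 and the mesenchymal list has called genes on both sides.

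Within SW480, 3 of the 15 mesenchymal effector genes were called higher with dnLEF1, beside 1.35% of all tested genes, and no gene of the other 6 lists around them passed. Of these 15 genes 7 lay above 0 and 8 below, with a median log2 change of -0.06 against 0.03 over all tested genes. FN1, the gene of fibronectin, rose from 11.1, 9.09 and 4.49 to 26.8, 45.2 and 19.0 TPM (log2 change 1.75, SE 0.37, adjusted p 0.0200). S100A4 (0.63, adjusted p 0.0177) and CALD1 (0.79, adjusted p 0.0424) rose as well. After median-ratio scaling 1 of the 15 was called, with an adjusted p of 0.176 for S100A4 and 0.192 for CALD1. With only the 2 groups in the fit, the adjusted p of FN1, S100A4 and CALD1 was 0.205, 0.482 and 0.489. Without SW480 Mock replicate 3 it was 0.0708 for FN1 and 0.0557 for S100A4, without SW480 dnLEF1 replicate 2 it was 0.101 for FN1 and without SW480 dnLEF1 replicate 3 it was 0.0763 for S100A4. CALD1 also missed the threshold without any of 4 libraries, SW480 Mock replicate 1 or 2 and SW480 dnLEF1 replicate 2 or 3 (adjusted p 0.0704 to 0.16). Among genes that did not pass, the factor TWIST2 stood at 0.96 (adjusted p 0.0988), TGFBR2 at 0.63 (0.103), SMAD7 at -0.91 (0.103) and the cadherin CDH13 at -0.68 (0.0831). Of the colon carcinoma markers, KRT19 (-0.66, adjusted p 0.0147) and CDX2 (-1.62, adjusted p 0.00696) fell in the same comparison. Their summed list was 12842 to 17523 TPM in SW480 dnLEF1 and 16878 to 20708 in SW480 Mock. Of the other cell type markers, COL1A1 (0.83), PDGFRB (0.505), VWF (0.76) and CD68 (1.43) were higher without overlap, as were 7.17% of all tested genes. DES (-0.57) and CSF1R (-0.665) lay below 0, and none of these passed. The sums of fibroblast, endothelial and leukocyte markers were 11.7 to 16.9, 2.11 to 5.83 and 4.20 to 12.5 TPM with dnLEF1. In SW480 Mock they were 5.96 to 15.2, 0.72 to 2.35 and 4.12 to 5.25. The part of these marker levels in the rise of MIR205HG and of these mesenchymal genes was not tested.

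Within SW620, no gene of these lists was called with dnLEF1. Of the 15 epithelial polarity and surface genes, 14 had a value below 0, as had 14767 of all 22981 tested genes, and the list median was -0.49. After median-ratio scaling 13 of the 15 were below 0, with a median of -0.33. The mesenchymal effector genes were lower too, with 11 of 15 below 0 and a median of -0.39. After median-ratio scaling 11 were again below 0, with a median of -0.30. The difference between the lines' dnLEF1 changes was called for ELF3, an epithelial ETS factor (-1.39, SE 0.26, adjusted p 0.0199), and for S100A4 (-0.94, SE 0.18, adjusted p 0.0251). ELF3 was 40.8, 40.5 and 46.7 TPM in SW480 dnLEF1 against 30.7, 35.7 and 26.6 in SW480 Mock. It was 15.3, 17.3 and 17.3 in SW620 dnLEF1 against 29.8, 33.3 and 35.0 in SW620 Mock. In the SW620 Cas9 control it was 19.6, 31.3 and 19.1. S100A4 stood at -0.31 against SW620 Mock both with dnLEF1 and in Cas9. After median-ratio scaling the adjusted p of the difference between the lines was 0.0629 for ELF3 and 0.305 for S100A4. Leaving out SW480 dnLEF1 replicate 3, SW620 dnLEF1 replicate 1 or SW620 Mock replicate 2 or 3 ended both calls (adjusted p 0.0544 to 0.0579 for ELF3). Leaving out SW620 dnLEF1 replicate 2 or 3 also ended that of S100A4 (0.0633 and 0.0733).

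No gene of these lists passed in LRP6KO against Cas9 or in Cas9 against Mock. In LRP6KO, ESRP2 (-0.55), the tight junction gene F11R (-0.66), the mesenchymal list's FSCN1 (-0.67) and CDHR2 (-0.27) were among those lower without overlap. EHF (0.21) was among those higher, beside 3.99% of all tested genes lower and 5.68% higher. Of the mesenchymal effector genes 2 were higher and 2 lower without overlap. Of the 15 polarity and surface genes 11 lay below 0 (median -0.09), and of the 15 mesenchymal genes 10 lay above 0 (median 0.18, and 9 of 15 after median-ratio scaling). Over all 22981 tested genes 13817 lay above 0, with a median of 0.07. In Cas9 against Mock, HNF4A stood at 0.76 (adjusted p 0.763), FOSL1 at 1.01 (0.833) and the cadherin-related CDHR2 at 0.76 (0.870).

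Promoter sequences are shown for 3 genes of these lists, since ZEB and SNAIL factors bind the E-box CAGGTG, which reads CACCTG on the other strand. The 3 were picked by name and not by a rule on their expression, so they do not stand for their lists. MIR200CHG and AP1M2 were lower in SW620 Mock, and CRB3, a polarity gene, did not pass there (log2 difference -0.05, adjusted p 0.896) and was lower in the dnLEF1 libraries of SW620 than in those of SW480 (-0.94, adjusted p 0.00201). The 250 bases before each RefSeq start are given on the gene's strand, with each match in capitals.
MIR200CHG (GRCh38.p14, chr12:6962995-6963244, plus strand): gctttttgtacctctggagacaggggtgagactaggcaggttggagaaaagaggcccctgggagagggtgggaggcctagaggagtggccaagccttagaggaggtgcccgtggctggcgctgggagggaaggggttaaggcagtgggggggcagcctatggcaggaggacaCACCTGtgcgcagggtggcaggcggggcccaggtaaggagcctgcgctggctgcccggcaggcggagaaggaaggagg
AP1M2 (GRCh38.p14, chr19:10587313-10587562, minus strand): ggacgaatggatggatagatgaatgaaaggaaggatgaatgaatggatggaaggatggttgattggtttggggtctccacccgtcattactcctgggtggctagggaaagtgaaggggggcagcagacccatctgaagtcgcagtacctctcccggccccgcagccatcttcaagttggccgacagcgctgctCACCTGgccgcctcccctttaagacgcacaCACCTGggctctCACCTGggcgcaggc
CRB3 (GRCh38.p14, chr19:6464021-6464270, plus strand): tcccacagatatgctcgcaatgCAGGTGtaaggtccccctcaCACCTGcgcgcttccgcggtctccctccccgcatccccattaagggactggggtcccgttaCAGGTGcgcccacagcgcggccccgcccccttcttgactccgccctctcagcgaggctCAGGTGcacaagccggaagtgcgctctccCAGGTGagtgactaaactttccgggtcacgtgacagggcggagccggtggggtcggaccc
MIR200CHG holds 1 match, AP1M2 3 and CRB3 5, and 17.5% of all 35116 windows of this length hold at least 1. The counts that follow are over whole windows, which run past these 250 bases, and 20.6% of whole windows hold a match. Of the 10 EMT genes 4 have windows in the table. VIM, ZEB2 and CDH2 hold no match there, and ZEB1 holds matches in 2 of its 7 windows. Over all windows of a gene the motif was found in 7 of the 8 polarity and surface genes in the table, against 24.1% of all genes. The motif was found in 5 of 5 other cadherins, 4 of 8 epithelial transcription and splicing factors and 3 of 8 adhesion complex genes. The counts were 3 of 10 for TGF-β input, 3 of 11 for mesenchymal effectors and 0 of 7 for further EMT transcription factors. The window of MIR205HG holds no match. A match is only a run of letters, and no binding was measured.

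Other genes with a pattern like that of an EMT gene were sought among 10834 genes with a mean of at least 5 TPM, by Pearson's r of log2(TPM + 1) over 18 libraries after removing each line's mean. The 2 nearest were FUCA1 (r 0.95) and TTC27 (0.88) for EPCAM, C11orf68 (0.92) and CR392039.4 (0.87) for VIM, and TECR (0.91) and ABHD14A (0.88) for SNAI1. They were AL035071.1 (0.84) and PLAUR (0.82) for CDH1, CLSTN3 (0.79) and FER (0.76) for ZEB1, and RANBP6 (0.77) and PRDM2 (0.76) for ESRP1. These are the highest of many values over libraries that share their group and composition, and are given as a description.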

How the data were processed

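RNA of frozen mouse caecum was sequenced with a Smart-seq2 protocol (RNA integrity number at least 9, per the labels). The submitters' processing notes name Trimmomatic 0.35, Bowtie 1.2 and RSEM 1.2.31 with the builds hg38 and mm10. The authors deposited TPM per human gene for 18 xenograft libraries of 6 groups, and each library sums to 1000000 TPM, so depth is unknown and no counting interval is given. The mouse table and the 3 PBS samples were not used here. Strand is not stated.

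Of 58381 identifiers, 58261 were found in GENCODE release 29, and 45 copies on chromosome Y, all at 0, were left out. The test was limma 3.58.1 (R 4.3.3) on log2(TPM + 1), its prior variance following the mean level, a mean per group and all 6 groups in the fit. It ran on the 22981 genes that reached 1 TPM in 3 or more libraries, with Benjamini-Hochberg adjustment over all of them within each comparison and a threshold of 0.05. "Called" means past it, and differences are on the log2(TPM + 1) scale, which understates changes of low genes. The script was tested on simulated data. All EMT genes are named in each comparison; from each other list up to 4 called genes with the smallest p are named, or the 2 smallest where none was called. A few genes that this rule names are not reported here. The members and lists were chosen with earlier results of these data known. Alternatives were a pseudocount of 0.1, no filter, median-ratio scaling, only the compared groups, array weights, a replicate block and each library left out; 2 were added after seeing the data, the dnLEF1 libraries in place of Mock between lines, and leaving out the 2 libraries with the most genes above 0. Sequences came from RefSeq tables (GRCh38.p14) and GENCODE 29 transcripts. Summaries used Python 3.11.15, numpy 2.4.6, pandas 2.3.3 and matplotlib 3.10.9.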

Additional observations from a re-analysis of the deposited data

Results flagged for a closer look

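The dnLEF1 change differed between the lines for 3 genes of the lists described, by a test of the difference itself. MIR205HG differed by -3.38 (SW620 minus SW480), with a rise in all 3 SW480 dnLEF1 libraries. ELF3 differed by -1.39, with higher values in SW480 dnLEF1 and lower values in SW620 dnLEF1 than in the mock libraries of the same line. S100A4 differed by -0.94, in the same sense. Against the same SW620 Mock libraries, the Cas9 control also stood lower for ELF3 (-0.50) and S100A4 (-0.31), without a call. With dnLEF1 in SW620 the values were -0.93 and -0.31. The part of the SW620 Mock level in these differences was not tested. The call was lost in 1 of 19 alternatives for MIR205HG, in 5 of 19 for ELF3 and in 9 of 19 for S100A4.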

How the results depend on the processing

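VIM and ESRP1 were called between the mock tumours of the lines in all 14 alternatives (adjusted p at most 0.00322 and 0.0133), and MIR200CHG in all 14. No EMT gene was called within a line in any alternative. Of the EMT genes 2 were called between the lines, and 4 with the dnLEF1 libraries. The difference of the dnLEF1 changes had 0 to 1 called when 1 library was left out (1 without SW480 dnLEF1 replicate 1 or SW480 Mock replicate 2), and 1 without both libraries of most genes.

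Counts of called genes moved more. For SW480 dnLEF1, 512 became 333 with a pseudocount of 0.1, 29 with only the compared groups and 261 with array weights, and 272 to 1223 with 1 library left out. For SW620 dnLEF1, 38 became 21, 120 and 394 in that order, and 17 to 26 with 1 library left out. For the difference of changes, 165 became 108 with median-ratio scaling, 43 with only the compared groups, 358 with array weights, 312 without both libraries of most genes, and 66 to 781 with 1 left out. LRP6KO against Cas9 gave 10 with only the compared groups and 1 with array weights. Cas9 against Mock gave 1 with no filter, 8 with only the compared groups, 101 with array weights and 0 to 1 with 1 library left out. The cause of these moves was not tested. In the fit of only the compared groups the filter is taken within them, so some low genes are not tested there.

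Median-ratio scaling moved the median of all genes from -0.12 to 0.00 for SW620 dnLEF1 and from -0.17 to 0.02 for the difference of changes. The share of called genes that were higher went from 60.7% to 45.8% in SW480, from 34.2% to 55.3% in SW620 and from 24.8% to 50.0% for the difference.

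Replicate numbers are shared by the groups, but same-numbered libraries did not deviate together in every pair. Correlations were 0.03, 0.01 and 0.09 for SW480 dnLEF1 and Mock, and 0.07, 0.26 and 0.09 for SW480 Mock and SW620 Cas9. The main fit used no pairing, and these correlations cannot exclude one between some groups. With the replicate block, 417 genes were called for SW480 dnLEF1, 32 for SW620 dnLEF1, 144 for the difference and 5196 between the lines, with no call changed among the EMT genes and the host genes. Among the other listed genes named here GRHL1 (adjusted p 0.0525) lost its call under it. TPM keeps no depth, so the precision of the lowest genes is unknown.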
